A study of Homo sapiens with 6 samples.

Results

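The human histone genes and histone variant genes were followed in OCI-LY1, an established line of diffuse large B cell lymphoma, a tumour of mature B cells. Members were the rows of the count table whose symbol starts with HIST1H, HIST2H, HIST3H, HIST4H, H1F, H2AF or H3F. This rule took 91 of 23250 rows, of which 73 carry HIST symbols, the replication-dependent histone genes, and 18 carry H1F, H2AF or H3F symbols, the linker histones and variants encoded outside the histone clusters. The 18 include H1FX-AS1, an antisense RNA, and H3F3AP4, a pseudogene, and the 73 include the pseudogenes HIST1H2APS1, HIST2H2BA and HIST2H2BC. The RD2 mutant rescue (3 libraries) received siRNA against BCL6 and an introduced BCL6 carrying a mutation in RD2, a repression domain in the middle of this germinal centre repressor. The wild-type rescue (3 libraries) received the same siRNA and an introduced wild-type BCL6. Both groups therefore share the siRNA against BCL6, and how far it depleted the cell's own BCL6 is not in the labels. No library without a rescue was analysed here, and all libraries come from 1 cell line. Whether the libraries stem from separate cultures is not in the labels, and the p-values therefore reflect library-to-library spread alone, and that spread could be technical.

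Histones package DNA into nucleosomes, which are built from H2A, H2B, H3 and H4, while linker histones of the H1 family bind the DNA between them. Replication-dependent histone genes lie in clusters, lack introns and are transcribed mainly in S phase, and their mRNAs normally end in a conserved stem-loop instead of a poly(A) tail. Replication-independent variants such as H2A.Z, macroH2A and H3.3 are made throughout the cell cycle from ordinary polyadenylated mRNAs and replace the canonical histones at chosen places in chromatin. In germinal centre B cells, which divide fast, both kinds are needed to package newly made DNA.

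The libraries held 26298456 to 26966183 counts in the mutant rescue and 26477404 to 27574867 in the wild-type rescue, so that a floor of 3 counts per library lay at 0.109 to 0.114 CPM (a count scaled to the size of its library), which covers counting error only. CPM values are TMM-scaled, and counts are as deposited. Changed, higher and lower mean an adjusted p under 0.05 in edgeR's quasi-likelihood test with Benjamini-Hochberg adjustment over all 12406 genes tested, and log2 fold changes are mutant rescue over wild-type rescue. By this test 70.1% of all tested genes differed, 35.4% higher and 34.8% lower in the mutant rescue, with a median log2 fold change of 0.01. BCL6 transcript itself was lower in the mutant rescue, at 519.9 ± 8.71 against 678.5 ± 24.3 CPM in the wild-type rescue (SD, n = 3 each; edgeR, adjusted p = 7.90e-10), and how far these reads come from the introduced copy is unknown. Of the B cell markers, PAX5 had 7043 to 7510 counts in the mutant rescue and 6064 to 6131 in the wild-type rescue, CD22 had 9598 to 10226 in the mutant rescue and 12892 to 14499 in the wild-type rescue, and MS4A1 had 2754 to 2940 in the mutant rescue and 15512 to 15908 in the wild-type rescue. Of 12 markers of T cells, myeloid cells, epithelium and fibroblasts, 1 was abundant enough to be tested, the epithelial adhesion gene EPCAM, with 93 to 109 counts in the mutant rescue and 423 to 437 in the wild-type rescue, and 2 were at 0 in all libraries. The part of these differences in the histone results was not tested.

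The stem-loop that normally ends replication-dependent histone mRNAs is shown first, because it is what sets these mRNAs apart from ordinary ones. A search of the GENCODE v29 transcripts (GRCh38) on the transcript strand for its consensus, a first stem arm of GG, 2 free bases and CT, a loop of 3 T and 1 free base, and a second arm of AG, 2 free bases and CC, found it in 32 of 73 HIST members and in 1 of 18 variant and linker members, H2AFX, a gene known to make both a stem-loop and a polyadenylated mRNA. Many of the other HIST models stop at the coding sequence, so no match there says only that these letters are not in the annotated transcript. The commonest form was shared by 17 HIST members, and the H4 members that had one carried a form with more G and C in the stem. Stem arms are in capitals and the loop in lower case, written as DNA.
HIST2H2BE: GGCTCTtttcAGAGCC
HIST1H2BD: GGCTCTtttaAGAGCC
HIST1H4H: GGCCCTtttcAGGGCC
H2AFX: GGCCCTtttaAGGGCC

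Histone promoters are known for short motifs that differ by histone type, and 4 promoters are shown for members described below: an H2B gene that shares its promoter with an H2A gene, the most abundant HIST2 gene, a linker histone gene and an H4 gene. Windows run from 250 bases before to 50 bases after the RefSeq start (GRCh38.p14), 5′ to 3′ on the gene's strand, with every match on either strand in capitals. Motifs searched were the CCAAT box (CCAAT), the TATA box (TATAAA), the octamer bound by POU2F1 and POU2F2 (ATTTGCAT), the H1 box of linker histone promoters (AAACACA) and the core of the BCL6 motif (TTCCTNGAA).
HIST1H2BJ, chr6:27132746-27133045, minus strand: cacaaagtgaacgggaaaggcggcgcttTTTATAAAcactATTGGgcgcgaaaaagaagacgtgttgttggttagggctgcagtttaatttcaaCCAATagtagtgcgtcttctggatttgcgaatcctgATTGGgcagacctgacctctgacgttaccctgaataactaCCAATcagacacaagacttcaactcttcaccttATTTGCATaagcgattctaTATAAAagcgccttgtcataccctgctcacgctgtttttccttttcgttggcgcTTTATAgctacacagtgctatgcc
HIST2H2BE, chr1:149886633-149886932, minus strand: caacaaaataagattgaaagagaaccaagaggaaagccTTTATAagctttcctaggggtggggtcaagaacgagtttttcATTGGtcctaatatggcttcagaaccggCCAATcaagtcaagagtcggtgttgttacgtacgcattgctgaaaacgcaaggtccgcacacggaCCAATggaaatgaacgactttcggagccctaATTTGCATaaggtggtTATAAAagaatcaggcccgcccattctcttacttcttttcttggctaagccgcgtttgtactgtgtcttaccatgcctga
HIST1H1C, chr6:26056421-26056720, minus strand: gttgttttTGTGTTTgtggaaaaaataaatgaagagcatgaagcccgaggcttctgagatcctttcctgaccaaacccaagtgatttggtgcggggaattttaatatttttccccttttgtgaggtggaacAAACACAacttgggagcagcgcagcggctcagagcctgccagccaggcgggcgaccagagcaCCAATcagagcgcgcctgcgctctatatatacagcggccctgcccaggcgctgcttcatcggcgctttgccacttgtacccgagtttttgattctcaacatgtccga
HIST1H4H, chr6:26285485-26285784, minus strand: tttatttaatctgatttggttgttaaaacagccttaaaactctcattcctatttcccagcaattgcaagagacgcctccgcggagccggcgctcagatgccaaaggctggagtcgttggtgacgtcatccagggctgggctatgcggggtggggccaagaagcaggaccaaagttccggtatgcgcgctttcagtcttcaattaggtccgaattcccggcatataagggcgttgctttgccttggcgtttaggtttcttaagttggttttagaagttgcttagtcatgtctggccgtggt

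In the HIST1H2BJ window the octamer lies at bases 204 to 211, counted from 1 at the 5′ end, followed by a TATA box at 223 to 228, and HIST2H2BE has the same order, with the octamer at 205 to 212 and a TATA box at 221 to 226. The HIST1H1C window has H1 boxes at bases 9 to 15 and 132 to 138, and the HIST1H4H window holds none of the 5 motifs. Promoter windows were at hand for 65 HIST members (69 windows) and 14 variant and linker members (19 windows). No window was at hand for H1F0, so its promoter was not searched for any motif. The octamer was in 15 of 20 H2B windows, 11 of 16 H2A windows, 1 of 14 H3 windows and 0 of 13 H4 and 6 H1 windows, against 1.77% of all 35116 RefSeq windows. The H1 box was in 6 of 6 HIST1H1 windows, against 5.64% of all windows. The CCAAT box was in all windows of HIST H1, H2A, H2B and H3 members and in 3 of 13 H4 windows, against 34.6% of all windows, and the TATA box was in 66.7% of HIST windows, against 11.5%. The BCL6 core was in 0 of the 69 HIST windows and 0 of the 19 variant and linker windows, against 1.56% of all windows. Divergent pairs share most of their window, so these counts are not of independent promoters.

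**Figure D1:**
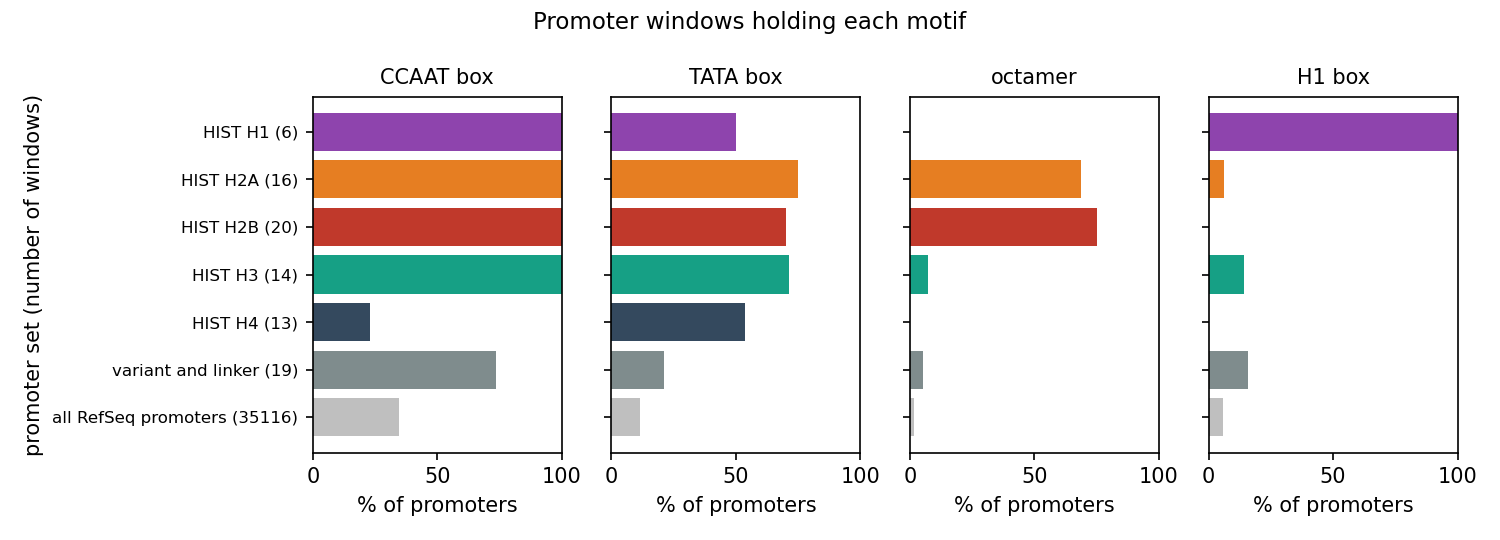
Share of 300-base promoter windows, in percent, that hold each of 4 motifs on either strand, for HIST members by histone type, for variant and linker members and for all RefSeq windows, with the number of windows in parentheses. The octamer bars stand out for H2A (68.8%) and H2B (75%), and the H1 box bar for H1 (100%).

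The mutant rescue held more histone transcript than the wild-type rescue. Summed over all 73 HIST rows, tested or not, the mutant rescue libraries had 2532, 2539 and 2613 counts and the wild-type rescue libraries had 1425, 1232 and 1319. The 18 variant and linker rows summed to 93599, 95351 and 94719 counts in the mutant rescue, against 62140, 60310 and 61627 in the wild-type rescue. Neither pair of groups overlapped. The HIST rows together took 0.00942% to 0.00994% of all counts in the mutant rescue and 0.00465% to 0.00517% in the wild-type rescue. In TMM-scaled CPM this was a 1.95-fold increase of the HIST sum, to 95.7 ± 2.14 CPM in the mutant rescue against 49.2 ± 2.51 CPM in the wild-type rescue, and a 1.55-fold increase of the variant and linker sum, to 3530 ± 37.3 CPM in the mutant rescue against 2280 ± 26.2 CPM in the wild-type rescue (SD, n = 3 each). An exact permutation test of 3 against 3 libraries cannot go below p = 0.1, so sums are given with no test. In bulk RNA a larger share of cells in a given phase and more transcript per cell cannot be told apart.

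Gene by gene, 10 of 10 tested variant and linker members, the antisense RNA H1FX-AS1 among them, were higher. Of the 73 HIST members, 35 passed the filter on low counts, and 22 of these were higher, 1 was lower and 12 did not pass the test. Of the 35, 12 passed the filter only through their counts in the mutant rescue, so the filter favoured genes that are higher there. Of the 22 with at least 10 counts in every wild-type rescue library, 14 were higher. With a filter on the mean count over all 6 libraries instead (at least 10), 33 HIST members were tested, and 21 were higher and 1 lower, while of all genes so filtered 35.4% were higher and 34.8% lower. At least 2-fold increases were seen for 14 HIST members and 3 variant and linker members, against 6.3% of all tested genes, and at least 2-fold decreases for 0 members, against 3.22% of all tested genes, the 1 lower call (HIST1H3J) being 1.38-fold. The mutant rescue lay wholly above the wild-type rescue for 22 HIST members and 9 variant and linker members (36.8% of all tested genes), and wholly below it for 2 HIST members (35.6% of all tested genes). The 2-fold and wholly above HIST counts both include HIST1H1D, HIST1H2AK, HIST1H2BF, HIST1H2BL, HIST1H4D and HIST1H4H. These passed the filter only through the mutant rescue, as did HIST1H1E, wholly above but not 2-fold. The filter therefore favoured both counts. The median log2 fold change was 0.60 over the 10 tested variant and linker members, against 0.01 over all genes tested. The 38 HIST rows that were not tested summed to 129, 126 and 117 counts in the mutant rescue and 66, 63 and 94 in the wild-type rescue, groups that do not overlap.

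Among linker histones, H1F0 and H1FX were both higher in the mutant rescue, H1F0 by the larger fold. H1F0 encodes the replication-independent linker histone that accumulates in resting and differentiated cells. It had 317, 312 and 318 CPM in the mutant rescue and 38.2, 39.4 and 40.8 CPM in the wild-type rescue. These groups lay far apart, with replicates close together (8.01-fold; log2 3.00, SE 0.037; edgeR, adjusted p = 8.49e-23). Of all 12406 tested genes it had the smallest p. H1FX, another linker histone gene outside the clusters, had 374, 335 and 423 CPM in the mutant rescue and 174, 177 and 168 CPM in the wild-type rescue. The mutant rescue libraries were all higher and more spread (2.18-fold; log2 1.13, SE 0.091; edgeR, adjusted p = 0.000103). H1FX-AS1, the antisense RNA beside it, had 197, 134 and 200 counts in the mutant rescue and 140, 105 and 143 in the wild-type rescue, groups that overlap (log2 0.46; edgeR, adjusted p = 0.0136). Since the strand setting is unknown, its reads and those of H1FX cannot be told apart with certainty, and the call was lost in 3 of the 6 fits that left out a library.

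The clustered linker genes were scarce beside these. HIST1H1C, the most abundant of them, had 438, 436 and 456 counts in the mutant rescue and 246, 219 and 245 in the wild-type rescue (1.89-fold; edgeR, adjusted p = 5.05e-10). HIST1H1D, chosen here after its value was seen, had 28, 32 and 30 counts in the mutant rescue and 9, 3 and 3 in the wild-type rescue, a log2 fold change of 2.56 (SE 0.34) from few counts. It passed the filter only through the mutant rescue, where it is high. HIST1H1B had 10, 15 and 10 counts in the mutant rescue and 14, 15 and 13 in the wild-type rescue and did not pass the test. Of all counts on H1F0, H1FX and the 6 HIST1H1 rows, H1F0 took 44.7%, 46.9% and 41.8% in the mutant rescue and 17.2%, 17.5% and 18.6% in the wild-type rescue. H1FX took 52.7%, 50.3% and 55.6% in the mutant rescue, against 78.3%, 78.4% and 76.8% in the wild-type rescue. The HIST1H1 rows took 2.52% to 2.82% in the mutant rescue and 4.13% to 4.53% in the wild-type rescue. These are shares of reads, which also depend on transcript length.

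The H2A variants rose by unequal amounts. H2AFJ, a replication-independent gene for the variant H2A.J, had 24.6, 21.4 and 25.1 CPM in the mutant rescue and 8.9, 8.57 and 8.69 CPM in the wild-type rescue (2.72-fold; log2 1.44, SE 0.076; edgeR, adjusted p = 4.92e-13). H2AFX, whose product is phosphorylated around DNA breaks, had 60.7, 56.2 and 70.1 CPM in the mutant rescue, against 32.3, 36.6 and 33.2 CPM in the wild-type rescue (1.83-fold; edgeR, adjusted p = 8.25e-06). In both genes every mutant rescue library lay above every wild-type rescue library. The H2A.Z genes H2AFZ and H2AFV, whose products mark promoters and enhancers, differed less. H2AFZ had 783, 814 and 770 CPM in the mutant rescue and 603, 610 and 589 CPM in the wild-type rescue (1.31-fold; log2 0.39, SE 0.030; edgeR, adjusted p = 2.85e-10). H2AFV had 479, 515 and 484 CPM in the mutant rescue, against 378, 393 and 383 CPM in the wild-type rescue (1.28-fold; edgeR, adjusted p = 4.41e-09). H2AFY, the gene for macroH2A1, a variant with a large extra domain found in silent chromatin, had 469, 490 and 478 CPM in the mutant rescue, against 385, 400 and 395 CPM in the wild-type rescue (1.22-fold; log2 0.29, SE 0.031; edgeR, adjusted p = 4.51e-08). Its fold change was the smallest of the tested variants and lost its call when edgeR's glmTreat required at least a 1.2-fold change (adjusted p = 0.204). Its paralogue H2AFY2 had 4 to 12 counts per library and was not tested.

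H3.3 is the replication-independent H3 and is encoded by H3F3A and H3F3B. H3F3B had 932, 960 and 937 CPM in the mutant rescue and 612, 610 and 607 CPM in the wild-type rescue, the most abundant member by CPM in both groups (1.55-fold; log2 0.63, SE 0.028; edgeR, adjusted p = 3.97e-14). H3F3A was listed at 0 in all 6 libraries, although only 12.9% of the 50-base stretches of its transcript occur in other genes, chiefly the pseudogene H3F3AP4, which was at 0 too. No level of H3F3A can be read from these files. H3F3C, an H3 gene that arose as a retrocopy of H3F3B and is known from testis, had 46.6, 44 and 45.1 CPM in the mutant rescue, against 29.7, 31.4 and 30 CPM in the wild-type rescue (1.49-fold). Its counts were 4.58% to 5% of those of H3F3B in the mutant rescue and 4.85% to 5.15% in the wild-type rescue, and 21.8% of its 50-base stretches occur in other genes, mainly H3F3B, so its value is uncertain.

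Per kilobase of the longest coding GENCODE v29 transcript, the levels of the variants fell in the order H2AFZ (806 ± 23.2 CPM per kb in the mutant rescue, 614 ± 10.5 in the wild-type rescue), H3F3B (349 ± 5.42 in the mutant rescue, 225 ± 0.942 in the wild-type rescue) and then a middle group. In the mutant rescue the middle group ran H1FX (250 ± 29.5), H2AFY (172 ± 3.77), H1F0 (135 ± 1.46) and H2AFV (130 ± 5.13), of which the last pair did not differ beyond their spread. In the wild-type rescue H1F0 stood lower, at 16.8 ± 0.554, below H2AFX at 21.1 ± 1.39, while H2AFY (141 ± 2.63), H1FX (115 ± 2.88) and H2AFV (101 ± 1.90) made up the middle. At the low end, H3F3C had 42.8 ± 1.26, H2AFX 38.6 ± 4.4 and H2AFJ 36.8 ± 3.13 CPM per kb in the mutant rescue, and H2AFX did not differ from either neighbour beyond their spread. In the wild-type rescue H3F3C had 28.7 ± 0.861 and H2AFJ 13.5 ± 0.257 CPM per kb (SD, n = 3 throughout). Within the mutant rescue, replicate 2 had the lowest CPM of H1F0, H1FX, H1FX-AS1, H2AFJ, H2AFX and H3F3C and the highest of H3F3B, H2AFZ, H2AFV and H2AFY.

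**Figure D2:**
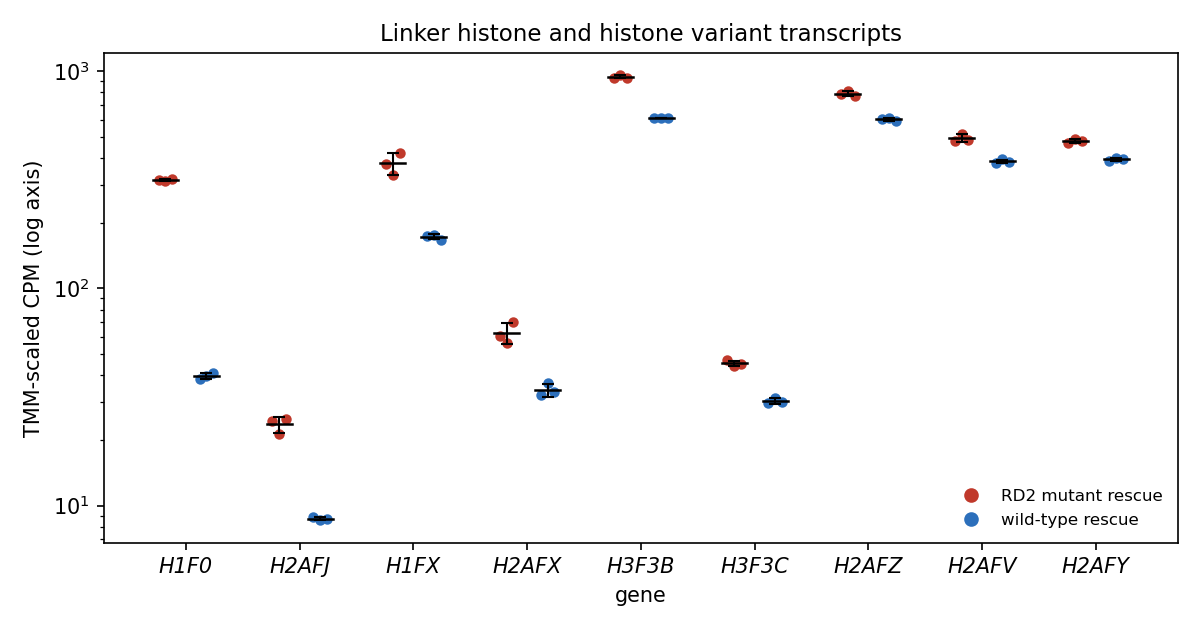
TMM-scaled CPM on a log axis in each library for the 9 tested linker histone and variant genes, ordered by fold change, with the mean and SD of 3 libraries. H1F0 is near 316 in the mutant rescue against 39.4 in the wild-type rescue, and for all 9 genes the points of the groups do not overlap.

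Summed over each histone type, the clustered genes were higher in the mutant rescue by different folds. H2B rows took up the largest part, with 1289, 1291 and 1356 counts in the mutant rescue and 640, 539 and 592 in the wild-type rescue, a 2.24-fold higher summed CPM. H1 rows followed at 1.93-fold, H2A rows at 1.81-fold and H4 rows at 1.72-fold. H3 rows had 238, 254 and 271 counts in the mutant rescue, against 218, 187 and 180 in the wild-type rescue, which is 1.31-fold, and the groups did not overlap. Of all HIST counts, H2B rows made up 50.9%, 50.8% and 51.9% in the mutant rescue and 44.9%, 43.8% and 44.9% in the wild-type rescue. H3 rows made up 9.4%, 10% and 10.4% in the mutant rescue, against 15.3%, 15.2% and 13.6% in the wild-type rescue. For both types the shares of the groups did not overlap, while the shares of H1, H2A and H4 overlapped. Without HIST1H2BK and HIST1H1C, the 2 most abundant HIST genes, the HIST sum was 2.04-fold higher.

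**Figure D3:**
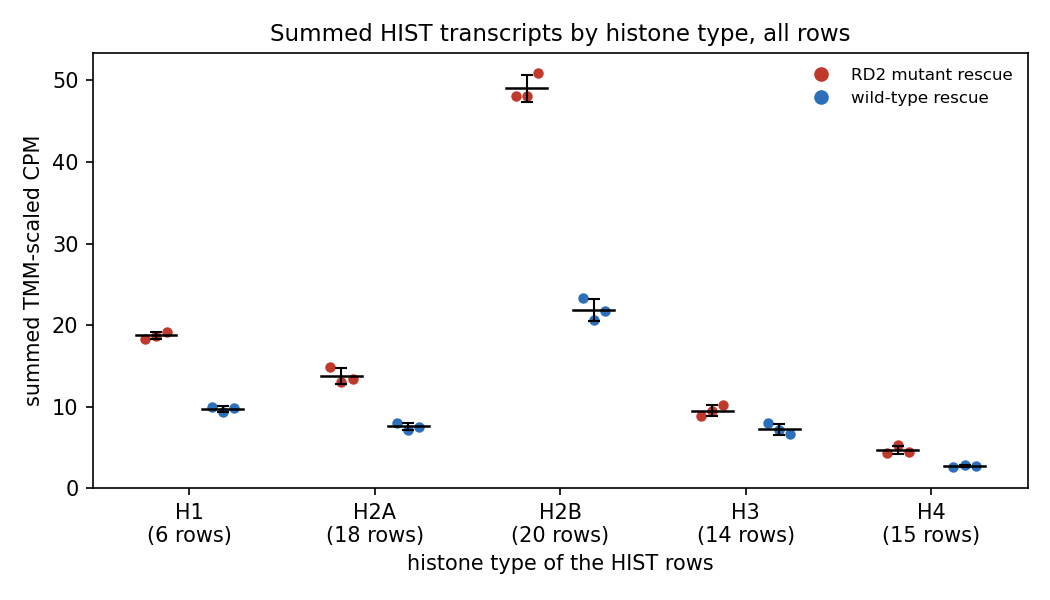
Summed TMM-scaled CPM of all HIST rows of each histone type in each library, with the mean and SD of 3 libraries. The H2B points are near 49 in the mutant rescue and 21.9 in the wild-type rescue, while the H3 points lie closer together, near 9.51 in the mutant rescue and 7.24 in the wild-type rescue.

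All 9 tested H2B members were higher, with log2 fold changes of 0.70 to 2.17. HIST1H2BJ had 173, 189 and 217 counts in the mutant rescue and 56, 40 and 33 in the wild-type rescue (4.51-fold; log2 2.17, SE 0.15; edgeR, adjusted p = 7.62e-11). HIST2H2BE had 113, 110 and 115 counts in the mutant rescue, against 58, 30 and 37 in the wild-type rescue (2.72-fold; log2 1.44, SE 0.17; edgeR, adjusted p = 2.04e-07). HIST1H2BD had 265, 251 and 266 counts in the mutant rescue, against 105, 90 and 104 in the wild-type rescue (2.63-fold; log2 1.40, SE 0.098; edgeR, adjusted p = 6.25e-11). In all 3 genes the lowest mutant rescue library was above the highest wild-type rescue library. HIST1H2BK, the most abundant HIST member, had 514, 502 and 525 counts in the mutant rescue, against 308, 283 and 293 in the wild-type rescue (1.76-fold; edgeR, adjusted p = 8.97e-10), and 74.1% of its 50-base stretches also occur in other genes, mostly H2BFS. HIST1H2BG had 53, 38 and 58 counts in the mutant rescue, against 24, 20 and 24 in the wild-type rescue (2.2-fold; edgeR, adjusted p = 9.02e-05). HIST1H2BF, named after its value was seen, had 11, 29 and 23 counts in the mutant rescue, against 6, 4 and 4 in the wild-type rescue and rose by 2.15 on the log2 scale (SE 0.42), having passed the filter only through the mutant rescue. Of the H2B members with at least 10 counts in every wild-type rescue library, 7 of 7 were higher. The remaining 11 of 20 H2B rows were not tested.

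Of 18 H2A rows 9 were tested, of which 4 were higher and 5 did not pass the test. HIST1H2AC had 196, 154 and 156 counts in the mutant rescue and 78, 63 and 63 in the wild-type rescue (2.5-fold; log2 1.32, SE 0.13; edgeR, adjusted p = 1.99e-08). HIST1H2AE (log2 1.21), HIST1H2AK (1.21) and HIST1H2AG (0.72) were the others that rose. Of the 6 H2A members with at least 10 counts in every wild-type rescue library, 3 were higher. HIST1H2AH had 17, 27 and 22 counts in the mutant rescue, against 23, 22 and 18 in the wild-type rescue, groups that overlap fully.

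Many H2A and H2B genes sit head to head and share 1 promoter region, and 11 such pairs had overlapping windows. In 6 pairs both members were tested: the H2B member was higher in 6 and the H2A member in 3. Of these members, HIST1H2BL, called higher, and HIST1H2AM, which did not pass the test, passed the filter only through the mutant rescue. In the pair with the window shown above, HIST1H2BJ rose by 2.17 and HIST1H2AG by 0.72 on the log2 scale, and HIST1H2BJ had 455%, 440% and 417% of the counts of HIST1H2AG in the mutant rescue, against 193%, 200% and 103% in the wild-type rescue. HIST2H2BE rose by 1.44, and HIST2H2AC had a log2 fold change of 0.51 that did not pass the test. HIST1H2BG rose by 1.14 and HIST1H2AE by 1.21. HIST1H2BC and HIST1H2AC had the larger value on the H2A side, at 0.70 and 1.32. The H2B value exceeded the H2A value in 4 of the 6 pairs, and the difference within pairs was not tested.

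H3 and H4 genes were less uniform. Of 14 H3 rows 7 were tested, with 3 higher, 1 lower and 3 that did not pass. HIST1H3G had 47, 49 and 45 counts in the mutant rescue and 24, 32 and 23 in the wild-type rescue (1.79-fold; edgeR, adjusted p = 0.000921). HIST1H3H and HIST1H3D also rose (1.05 and 0.98 on the log2 scale), but 100% of the 50-base stretches of HIST1H3D occur in another gene model as well. HIST1H3J was the only member called lower in the mutant rescue, with 30, 40 and 37 counts in the mutant rescue, against 54, 46 and 49 in the wild-type rescue (1.38-fold; log2 -0.47, SE 0.18; edgeR, adjusted p = 0.0285). That call was lost with DESeq2 (adjusted p = 0.127) and in 3 of the 6 fits that left out a library (adjusted p = 0.0555 to 0.135), and 62.8% of its 50-base stretches are shared, chiefly with HIST1H2AM. HIST1H3C had 32, 30 and 37 counts in the mutant rescue, against 48, 37 and 40 in the wild-type rescue, touching at 37 in raw counts, and did not pass the test (log2 -0.33; edgeR, adjusted p = 0.140). Of 15 H4 rows 6 were tested, of which 3 were higher: HIST1H4H (log2 1.54, with 26, 42 and 34 counts in the mutant rescue, against 15, 13 and 7 in the wild-type rescue), HIST1H4D (1.39) and HIST1H4E (0.88, with groups that overlap). All 3 passed the filter only through the mutant rescue, where they are high, and of the 2 H4 members with at least 10 counts in every wild-type rescue library 0 were higher, so the H4 count says little. HIST1H4C, HIST1H4I and HIST4H4 did not pass the test. The call of HIST1H4E was lost with DESeq2 and in 4 of the 6 fits that left out a library, and that of HIST1H1E among the linker genes with DESeq2 and in 3 of the 6.

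**Figure D4:**
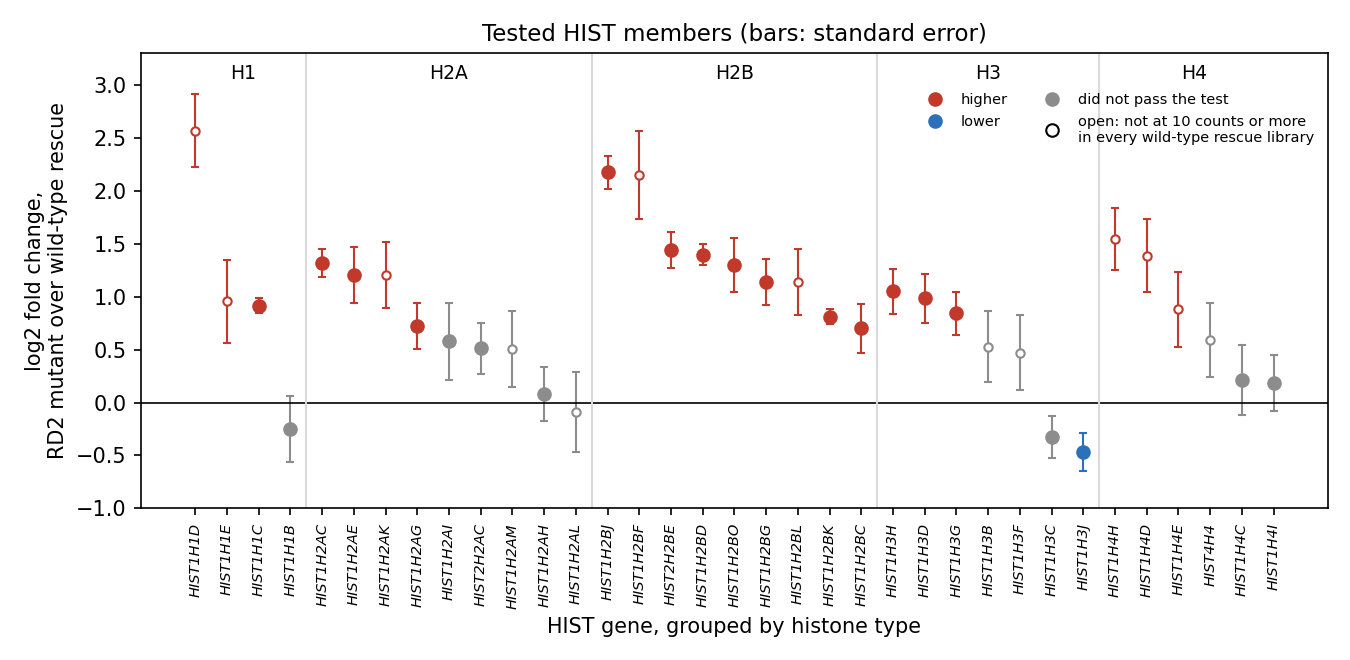
Log2 fold change, mutant rescue over wild-type rescue, of the 35 tested HIST members grouped by histone type, with bars of 1 standard error; filled points had at least 10 counts in every wild-type rescue library. All 9 H2B points lie above 0, and HIST1H3J is the one lower call.

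Along chromosome 6 the 56 HIST1 genes fall into 3 stretches in the RefSeq gene order, parted by other genes. Over all rows of the first stretch (35 rows) the mutant rescue had 1347, 1337 and 1345 counts and the wild-type rescue 712, 611 and 660, a 2.05-fold difference in summed CPM. The second stretch, 5 rows from HIST1H2BJ to HIST1H2AH, differed 1.98-fold, and the third, of 16 rows, 1.37-fold, with 247, 240 and 239 counts in the mutant rescue, against 183, 173 and 178 in the wild-type rescue. Of the tested members 14 of 18 were higher in the first stretch, 3 of 5 in the second and 4 of 9 in the third, against 35.4% of all tested genes. The third stretch also holds HIST1H3J. However, 8 of the 18 and 3 of the 9 passed the filter only through the mutant rescue. Of the members with at least 10 counts in every wild-type rescue library, 8 of 10 were higher in the first stretch, 3 of 5 in the second and 2 of 5 in the third. The share of all genes under that requirement was not computed, and the difference between stretches was not tested. The 13 HIST2 rows of chromosome 1 summed to 169, 164 and 175 counts in the mutant rescue and 89, 55 and 74 in the wild-type rescue, of which HIST2H2BE made up 113, 110 and 115 in the mutant rescue and 58, 30 and 37 in the wild-type rescue. The 3 HIST3 rows had at most 3 counts in a library.

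**Figure D5:**
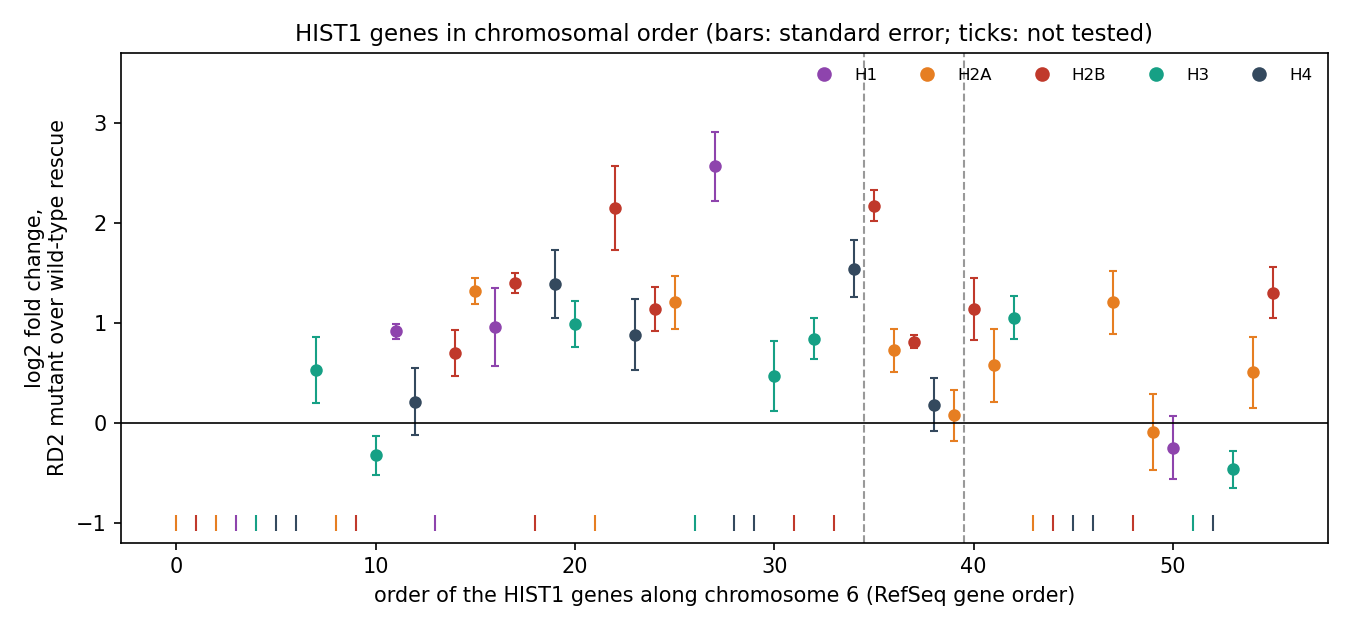
Log2 fold change, mutant rescue over wild-type rescue, of the HIST1 genes in their order along chromosome 6, coloured by histone type, with bars of 1 standard error and ticks for genes that were not tested. Dashed lines part the 3 stretches. Of genes with at least 10 counts in every wild-type rescue library, 8 of 10 were higher in the first and 2 of 5 in the third. Of all tested genes, without that requirement, 35.4% were higher.

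Low counts of replication-dependent genes are usual where libraries favour polyadenylated RNA. The labels name the TruSeq RNA procedure and do not say how RNA was selected. RMRP and RPPH1, abundant RNAs without a poly(A) tail, had 22 to 39 and 14 to 15 counts in the mutant rescue and 20 to 44 and 3 to 19 in the wild-type rescue, and neither passed the test (edgeR, adjusted p = 0.700 and 0.241), although RPPH1 was called higher without wild-type rescue replicate 1 (log2 1.49, adjusted p = 0.00752). The 6 HIST genes reported to make polyadenylated forms as well, HIST1H1C, HIST1H2AC, HIST1H2BC, HIST1H2BD, HIST1H2BK and HIST2H2BE, were all higher and took 61.8%, 59.4% and 59.4% of HIST counts in the mutant rescue, against 57.5%, 57.2% and 58.8% in the wild-type rescue. The other 67 rows together had 967, 1032 and 1062 counts in the mutant rescue and 605, 527 and 544 in the wild-type rescue, a 1.84-fold difference in summed CPM. These 67 are not all limited to stem-loop ends. In GENCODE v29, 23 HIST members have a transcript that runs at least 100 bases past the stem-loop. Of the 67, HIST1H2AG (1761 bases) and HIST1H3G (1518 bases) are examples. Within these counts, more transcript and a larger polyadenylated part cannot be told apart.

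At 0 in every library were 14 members, and for 10 of these at least 90% of the 50-base stretches of the longest transcript occur in another gene, as for HIST2H2AA3 and HIST2H2AA4, HIST2H4A and HIST2H4B, and HIST2H3A and HIST2H3C. Their level cannot be read from these counts. Of the 35 tested HIST members 27 share under 10% of their stretches with another gene, and 18 of these were higher, while the 1 member called lower, HIST1H3J, is not among them.

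Counts over genes that make, process and place histones stand beside the 35.4% higher and 34.8% lower of all tested genes. Of 26 factors of histone mRNA transcription and processing, 6 were higher, 13 lower and 7 did not pass, with a median log2 fold change of -0.11. SLBP, which binds the stem-loop and is needed for its processing and translation, was lower, at 133.1 ± 5.002 CPM in the mutant rescue against 149.8 ± 3.76 CPM in the wild-type rescue (log2 -0.17, SE 0.036; edgeR, adjusted p = 0.000274). NPAT, the coactivator of the histone clusters, had 123.9 ± 4.12 CPM in the mutant rescue and 120.5 ± 1.34 CPM in the wild-type rescue and did not pass the test. HINFP, which activates H4 genes, was higher (0.69), as was ZNF473, a processing factor (0.60), while LSM10, a subunit of the U7 particle that cleaves histone mRNAs, was lower (-0.52). Of 28 histone chaperones and carriers, 9 were higher and 12 lower (median -0.06), near those shares. The importin gene IPO4 and the nucleoplasmin family gene NPM1 were lower (-1.02 and -0.60), and HJURP, the chaperone of the centromeric H3 variant CENPA, was higher (0.61), as was CENPA (1.09). Of 20 tested genes for H2A.Z exchange, 8 were higher and 5 lower (median -0.02), and ANP32E, which removes H2A.Z, rose by 0.41.

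Cell cycle genes moved with the groups as well. Of 46 S phase genes 6 were higher and 28 lower in the mutant rescue (median log2 -0.14), against 35.4% higher and 34.8% lower of all tested genes. MCM4, MCM5 and MCM6 of the replicative helicase were lower (-0.72, -0.60 and -0.74), while E2F2 was higher (0.79). Of 40 genes for mitosis 33 were higher and 2 lower (median 0.36), among them BUB1 of the spindle checkpoint (1.02) and the mitotic activator FOXM1 (0.84). Their part in the histone results was not tested.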

How the data were processed

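RNA was measured by sequencing in 6 OCI-LY1 libraries, 3 of the RD2 mutant rescue and 3 of the wild-type rescue, grouped by their genotype labels. The authors deposited a table of whole-number read counts, not normalized, with gene symbols as rows and 1 column per library. The submitters' processing notes name CASAVA 1.8.2, STAR, edgeR and build hg19. The counter, annotation, strand setting and multi-mapping rule were not given in the sources used here, so members with near-identical copies may have lost or shared reads.

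Counts were analysed in R 4.3.3 with edgeR 4.0.16: filterByExpr, TMM scaling, robust dispersions and glmQLFTest on both groups with no covariate, fitted on the whole table (12406 of 23250 genes tested). SE is the absolute log2 fold change divided by the square root of F. The steps were tested on simulated counts. Members and lists were chosen with earlier results of these data known. Named were all tested H1F, H2AF and H3F members, the 10 HIST members with the highest mean count, the 5 higher and 5 lower with the largest change at a mean count of at least 50 without overlap (no lower one qualified), the smallest p in each list (up to 4), and SLBP, NPAT and CENPA. Others are marked or given as examples chosen after their values were seen: HIST1H1B, HIST1H1D, HIST1H1E, HIST1H2BF, HIST1H2BL, HIST1H2AE, HIST1H2AG, HIST1H2AH, HIST1H2AK, HIST1H2AM, HIST1H2BC, HIST2H2AC and the remaining H3 and H4 members. Gene order came from RefSeq and transcripts from GENCODE v29, matched for all 91 members, and promoter windows came from RefSeq where listed. Some listed genes are not reported here. Alternatives were other scalings, DESeq2 1.42.0, limma-voom (limma 3.58.1), edgeR's likelihood ratio test, other filters, a replicate block, glmTreat and leaving out each library.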

Additional observations from a re-analysis of the deposited data

How the results depend on the processing

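The count of HIST members called higher was 22 and lay between 19 and 26 under other scalings, DESeq2, limma-voom, the likelihood ratio test, the replicate block, glmTreat, no filter and the mean count filter (chosen after seeing the data), and between 21 and 23 when a library was left out. It was 6 when at least 1 CPM was required in all libraries, because most HIST members are then not tested. The count of HIST members called lower was 1 and became 0 with DESeq2, with glmTreat and, when a library was left out, ranged from 0 to 1. The variant and linker count was 10, or 8 with glmTreat, and 9 to 10 with a library left out. Against a minimum change of 1.2-fold (glmTreat) 4585 genes of all tested and 61 of the processing, chaperone, exchange and cell cycle lists passed, against 8702 and 120. The summed variant and linker share rose by 0.66 on the log2 scale from raw shares and 0.63 with TMM-scaled CPM, and 0.65 to 0.67 with a library left out, and the HIST share by 0.99, 0.96 and 0.96 to 1.03. Of the members that did not pass the test, HIST1H2AL and HIST1H2AH changed sign when a library was left out, as did RMRP. Their log2 fold changes then ranged from -0.258 to 0.163 for HIST1H2AL, from -0.0951 to 0.232 for HIST1H2AH and from -0.369 to 0.0861 for RMRP. The call of H1FX-AS1 was lost in 3 of the 6 fits without a library and that of HIST1H2BC in 2. Same-numbered libraries deviated together in replicates 1 and 2 but not 3 (correlations 0.31, 0.35 and -0.07). Whether the replicate numbers pair the libraries cannot be told from these values. A fit with the replicate block gave 22 HIST members higher, 1 lower, 10 variant and linker members higher and 9285 genes called in all. Members under the floor of 3 counts cannot be followed at this depth. The groups share 1 cell line, and how RNA was selected is unknown.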
